A study of Mus musculus with 8 samples.

Results

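The genes described here are 10 mouse genes of the acute-phase response and its serpins, chosen by symbol from a table of 31854 rows of read counts. They are the serum amyloid A genes Saa1, Saa2 and Saa3, the transport proteins Lcn2, Hp, Orm1 and Orm2, the serine protease inhibitors Serpina3n and Serpina3g, and the pentraxin Ptx3. Each symbol stood on 1 row, and 8 of the 10 rows passed the filter on low counts; Saa1 and Saa2 did not. The RNA was total RNA of epididymal white fat, which lies along the testis, from mice on a high-fat diet. The 2 genotypes were wild type (WT, replicates 1, 2, 3 and 5) and S273A (replicates 2, 3, 4 and 6), in which serine 273 of PPAR-gamma, the nuclear receptor of fat cells, is replaced by alanine. Both genotypes shared the diet and the depot. The labels give no strain, age, zygosity or length of feeding, and whether the libraries stand for different mice is not stated, so the p-values reflect library-to-library spread that may be technical.

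Acute-phase proteins are secreted proteins whose synthesis rises within hours of infection or injury. The liver is the main source of most of them, driven by interleukin 6 and interleukin 1 through STAT3, C/EBP and NF-kB. Fat tissue also makes several: haptoglobin (Hp) binds free haemoglobin, lipocalin 2 (Lcn2) binds the iron carriers of bacteria, and Saa3 is the serum amyloid A form made mostly outside the liver. The orosomucoids Orm1 and Orm2 carry lipophilic molecules, the serpins block proteases by trapping them, and Ptx3 is a pattern-recognition protein made at sites of inflammation. The comparison asked whether the transcripts of these proteins differed in the depot when serine 273 could not be phosphorylated.

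Total counts ran from 14880239 to 18194889 per library. The adipocyte markers fixed for the depot were all detected (14 of 14 tested, summed level 8361 to 12101 CPM in WT and 9700 to 12725 CPM in S273A), whereas none of the 10 epididymis and testis markers with a row passed the filter. CPM is the read count scaled to a common library size, here with TMM correction. WT replicate 2 had the lowest adipocyte marker score of the 8 libraries (-0.39, the mean log2 CPM of the markers minus each gene's mean), and S273A replicate 6 stood apart by neutrophil markers (1.15, against -0.39 to 0.09 in the other 7). These libraries touch several results below and are named there.

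The regions before the start sites of 5 members are shown because their transcripts differed in level or in pattern. Saa1 and Saa2 had almost no counted reads. Saa3 and Serpina3n were the closest pair across libraries, and Serpina3g stood outside the correlated members. The regions are given below. These regions are RefSeq sequences of GRCm38.p6, the assembly that mm10 names, 5′ to 3′ on the gene's strand. Each starts 250 bases before the RefSeq start and stops there or at the first exon base that GENCODE M21 annotates. Capitals mark matches to 3 motifs searched on both strands: TTNNGCAA (C/EBP), GGGA and CC with any 4 bases between them (NF-kB), and TTCNNNGAA (STAT), where N is any base.
Saa1, chr7:46742981-46743230, minus strand: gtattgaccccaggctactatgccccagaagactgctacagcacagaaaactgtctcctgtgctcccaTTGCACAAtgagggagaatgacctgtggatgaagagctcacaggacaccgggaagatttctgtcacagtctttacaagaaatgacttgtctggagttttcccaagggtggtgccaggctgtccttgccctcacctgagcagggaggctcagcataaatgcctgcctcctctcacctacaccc
Saa2, chr7:46751583-46751789, plus strand: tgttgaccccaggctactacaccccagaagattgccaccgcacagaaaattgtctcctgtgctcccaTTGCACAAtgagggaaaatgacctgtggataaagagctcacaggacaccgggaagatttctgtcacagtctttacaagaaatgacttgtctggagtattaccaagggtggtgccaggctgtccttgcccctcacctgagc
Saa3, chr7:46715701-46715926, minus strand: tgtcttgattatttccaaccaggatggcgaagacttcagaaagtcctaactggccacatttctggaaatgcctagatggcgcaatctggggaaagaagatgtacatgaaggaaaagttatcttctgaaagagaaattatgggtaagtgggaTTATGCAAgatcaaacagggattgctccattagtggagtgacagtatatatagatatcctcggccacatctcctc
Serpina3n, chr12:104406458-104406707, plus strand: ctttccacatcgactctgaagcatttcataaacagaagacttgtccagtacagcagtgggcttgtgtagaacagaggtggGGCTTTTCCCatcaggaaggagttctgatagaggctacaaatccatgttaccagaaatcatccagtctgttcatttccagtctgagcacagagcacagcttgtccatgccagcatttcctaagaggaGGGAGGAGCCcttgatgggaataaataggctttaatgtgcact
Serpina3g, chr12:104235897-104236146, plus strand: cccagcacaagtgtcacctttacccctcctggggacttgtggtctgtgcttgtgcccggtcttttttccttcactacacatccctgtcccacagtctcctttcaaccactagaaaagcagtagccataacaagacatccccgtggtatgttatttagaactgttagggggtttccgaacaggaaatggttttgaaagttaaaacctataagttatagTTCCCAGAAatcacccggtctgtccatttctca

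Of the 10 members, 8 had an entry in the promoter table. Saa1, Saa2 and Saa3 each held 1 C/EBP match, Serpina3n held 2 NF-kB matches, and Serpina3g held 1 STAT match, TTCCCAGAA. Beyond the 5 shown, Lcn2, Orm2 and Ptx3 also held 1 C/EBP match each, so that match is not particular to the Saa genes. The C/EBP match was the same 8 bases in Saa1 and Saa2, TTGCACAA, which fits the motif when read on the opposite strand. In Saa3 it was TTATGCAA, which fits on the gene's own strand, so the letters are not directly comparable. Among 32851 windows of 250 bases before the starts in the table, 9.56% held a C/EBP match, 17.6% an NF-kB match and 7.02% a STAT match. No pair of the motifs overlapped in these 5 windows. A match is a run of letters, not a measured binding site. The full windows of Saa1 and Saa2 were identical at 238 of 251 aligned positions (94.8%), those of Saa1 and Saa3 at 154 of 295 (52.2%).

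The members spanned a wide range of levels per kilobase of row length. Hp was highest at 1074 ± 273 CPM per kilobase (SD, n = 8 over both genotypes), followed by Serpina3n at 122 ± 27.3. Orm1 (34.3 ± 7.23), Saa3 (33.0 ± 13.6) and Lcn2 (16.0 ± 8.96) came next. Orm1 and Saa3 did not differ beyond their spread, and the ranges of Saa3 and Lcn2 overlapped. Serpina3g was at 8.18 ± 4.31, Ptx3 at 3.14 ± 1.03 and Orm2 at 2.27 ± 0.48 CPM per kilobase, and the last pair overlapped in range. Orm2 lies near Orm1 on chromosome 4, yet the lowest Orm1 library (23.6 CPM per kilobase) was above the highest Orm2 library (2.94). Several members are uncertain on this scale, because their row length differs from the bases that the annotated exons of the gene cover. The Serpina3g row is 4238 bases long against 2105 exon bases, that of Saa3 601 against 2606 and that of Lcn2 853 against 2623. The rows of Saa1 and Saa2 are 610 bases long each, against 2478 and 2518.

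**Figure D1:**
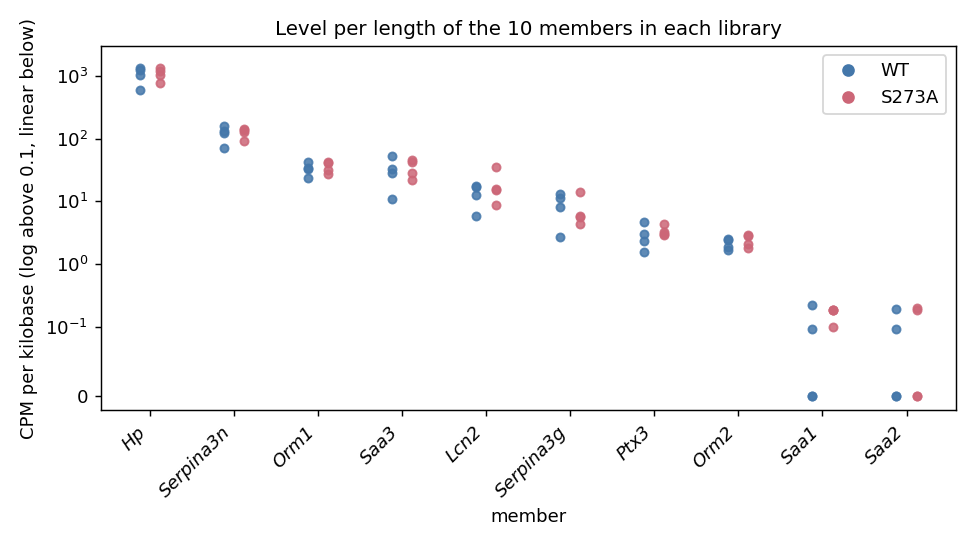
Levels of the 10 members as CPM per kilobase of row length, on an axis that is logarithmic above 0.1 and linear below, with 1 point per library (WT left and blue, S273A right and red). Hp lies highest, between 594 and 1356 CPM per kilobase, and Saa1 and Saa2 lie at or near 0 in every library.

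Short reads could not always be assigned to 1 member. Of the different 36-base stretches in the annotated transcripts, 41.8% of those of Saa1 and 39.5% of those of Saa2 also occur in a transcript of another gene, nearly all of them in each other. The share was 25.7% for Orm1, 30.8% for Orm2, 24.2% for Serpina3g and 16.9% for Serpina3n. It was 6.74% for Saa3 and 0 for Lcn2, Hp and Ptx3. These shares are over annotated transcripts, which cover more bases than the counted rows of Saa1, Saa2, Saa3 and Lcn2. How the authors counted reads that fit several places is not given in the sources used here, so the values of the Saa1-Saa2 pair, the Orm genes and the Serpina3 genes are uncertain to that extent. No exon of another annotated gene overlaps an exon of any member.

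Saa1 and Saa2, the serum amyloid A forms that the liver releases into blood, had almost no counted reads. How reads that fit both genes were counted is not given, so their true level is uncertain. Saa1 (row identifier uc009gyz.1; chromosome 7, 46740497 to 46742980, minus strand) had 0, 0, 2 and 1 reads in WT and 2, 2, 2 and 1 in S273A. Saa2 (uc009gzb.2; chromosome 7, 46751790 to 46754313, plus strand) had 1, 0, 0 and 2 reads in WT and 0, 0, 2 and 2 in S273A. Every one of these counts is below 3 reads, which stand for 0.165 to 0.202 CPM here and cover counting error only, so no fold is given and a difference was not detectable at this depth. Several other proteins made mainly by the liver were also scarce, though not all in the lists were: transcripts of the fibrinogen chains Fga, Fgb and Fgg and of serum amyloid P (Apcs) had no read in any library, and albumin (Alb) averaged 0.67 CPM over the WT and 0.73 CPM over the S273A libraries. Acute-phase genes that fat tissue also expresses were abundant, such as Lbp, which binds bacterial lipopolysaccharide (240.1 and 239 CPM), ceruloplasmin, Cp (169.7 and 184 CPM), and complement C3 (3212 and 3282 CPM). The hepatocyte marker Cyp2e1 was at 48.5 to 76.0 CPM in 7 libraries and at 352 CPM in S273A replicate 2. These genes were named after their values were seen. Saa4 had 14 reads over all 8 libraries.

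Saa3 was the serum amyloid A transcript with the most counted reads in this depot. It (uc009gyx.1; chromosome 7, 46711998 to 46715700, minus strand, 4 exon blocks) was at 16.7, 6.65, 31.5 and 20.02 CPM in WT and at 25.9, 12.9, 17.3 and 27.5 CPM in S273A. WT replicate 2 was lowest and WT replicate 3 highest, so the WT libraries alone spanned the whole range of 4.74-fold. WT averaged 18.7 ± 10.3 CPM and S273A 20.9 ± 6.96 CPM (SD, n = 4 each), and the fitted log2 fold change, S273A over WT, was 0.17 (SE 0.40, with an interval at 95% confidence of -0.72 to 1.06). The estimate was -0.12 without WT replicate 2 and 0.54 without WT replicate 3. The interval spans folds from 0.605 to 2.08, so changes inside it could not be detected here.

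Hp, the haemoglobin-binding protein, was the most abundant member. Its row (uc009nin.2; chromosome 8, 109575128 to 109579172, minus strand) held 23394, 14056, 26618 and 28101 reads in WT and 25180, 18524, 28296 and 29649 in S273A. As CPM, WT libraries were at 1388, 799, 1821 and 1650, and S273A libraries at 1404, 1042, 1625 and 1824. WT replicate 2 and S273A replicate 3 were the 2 low libraries, and the genotypes overlapped. The log2 fold change was 0.06 (SE 0.25, interval -0.50 to 0.61). Cd163, the macrophage receptor that takes up haptoglobin bound to haemoglobin, had a log2 fold change of -0.07, and Hmox1, which breaks down the haem, one of 0.04; both were named after their values were seen.

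Lcn2 had the highest estimate of the 8 tested members, and 1 library carried it. This siderophore-binding protein (uc008jfl.1; chromosome 2, 32384633 to 32388252, minus strand) was at 10.7, 4.95, 14.4 and 15.0 CPM in WT and at 12.8, 7.42, 13.4 and 30.5 CPM in S273A. S273A replicate 6 alone was above the highest WT library. The means were 11.3 ± 4.62 and 16.0 ± 9.99 CPM (SD, n = 4 each). The log2 fold change was 0.51 (SE 0.44, interval -0.47 to 1.49), and without S273A replicate 6 the estimate was -0.004.

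Lcn2 is also stored in the granules of neutrophils, and genes of those granules were high in that same library. Ltf, lactoferrin, was at 12.1 CPM in S273A replicate 6 and at 0.14 to 0.97 CPM in the other 7. Ngp was at 8.25 CPM against 0 to 0.34, Mpo, myeloperoxidase, at 5.35 against 0 to 0.45, and Camp, cathelicidin, at 4.61 against 0 to 0.39. The summed level of the 12 neutrophil markers was 34.2 to 38.4 CPM in WT and 26.8 to 91.1 CPM in S273A; none of the 12 was at 0 in all libraries, and 4 passed the filter. Ly6g, a defining surface marker, was at 0.80 CPM in S273A replicate 6 and at 0.29 to 0.55 CPM in the other 7. Csf3r, the most abundant of the 12, was not highest there: it was at 24.6 CPM in S273A replicate 6 and at 15.5 to 37.7 CPM in the others. Red blood cell markers were also highest there (score 1.14, against -0.74 to 0.63 in the others). The part of these cells in the Lcn2 level was not tested. In whole tissue, fewer cells of a type and less RNA per cell cannot be told apart.

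The orosomucoid genes Orm1 and Orm2, close together on chromosome 4, went different ways across libraries. Orm1 (uc008tfx.2; 63344560 to 63348163, plus strand) was at 25.3, 18.4, 33.6 and 26.5 CPM in WT and 32.9, 20.9, 31.8 and 24.3 CPM in S273A. It had the narrowest confidence interval of the tested members, with a log2 fold change of 0.09 (SE 0.19, interval -0.34 to 0.52). Orm2 (uc008tga.1; 63362449 to 63365878, plus strand) was at 1.90, 1.93, 1.44 and 1.29 CPM in WT and 1.39, 2.19, 1.61 and 2.28 CPM in S273A. It was higher where Orm1 was lower: S273A replicates 3 and 6 had the highest Orm2 and the lowest Orm1 of their genotype. Its log2 fold change was 0.18 (SE 0.23, interval -0.33 to 0.69), on 21 to 39 reads per library.

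The serpins of the Serpina3 cluster on chromosome 12 differed from each other in pattern. Serpina3n (uc007oxg.1; 104406729 to 104414329, plus strand), the mouse counterpart of human alpha-1-antichymotrypsin, was at 252, 148, 326 and 271 CPM in WT and 294, 194, 263 and 282 CPM in S273A. WT replicate 2 and S273A replicate 3 were again the low libraries. The log2 fold change was 0.05 (SE 0.22, interval -0.43 to 0.54). Serpina3g (uc029rxs.1; 104236245 to 104241939, plus strand), an inhibitor known from activated lymphoid and myeloid cells, was at 48.7, 56.0, 34.5 and 11.5 CPM in WT and 24.4, 60.3, 23.7 and 18.2 CPM in S273A. The libraries that were low in Serpina3n were the 2 highest in Serpina3g. Its log2 fold change was -0.25 (SE 0.48, interval -1.33 to 0.83), the only negative estimate among the tested members. It was -0.76 without S273A replicate 3 and 0.008 without WT replicate 2.

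Serpina3g was high in the libraries with the highest T and NK cell marker scores. Their score was highest in WT replicate 2 (0.50), WT replicate 1 (0.31) and S273A replicate 3 (0.30), the 3 libraries with the most Serpina3g. It was lowest in WT replicate 5 (-0.58), which had the least, and was -0.47 and -0.25 in S273A replicates 4 and 6. S273A replicate 2 was the exception, with a score of 0.12 and 24.4 CPM of Serpina3g. The markers also differed among themselves. Ncr1 (7.53 CPM), Klrb1c (6.80), Gzma (3.40) and Cd4 (32.0) were highest in S273A replicate 2. Cd3d, Nkg7 and Il7r were highest in WT replicate 2, Cd3e and Cd3g in S273A replicate 3, and Cd8a in WT replicate 1. Foxp3 was at 41.4 to 45.5 CPM in all libraries. The summed level of these markers was 188 to 304 CPM in WT and 210 to 262 CPM in S273A, all 11 with a row passed the filter, and the B and plasma cell score was high in WT replicate 2 (0.55) and S273A replicate 3 (0.75) as well. The part of these cells in the Serpina3g level was not tested.

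**Figure D2:**
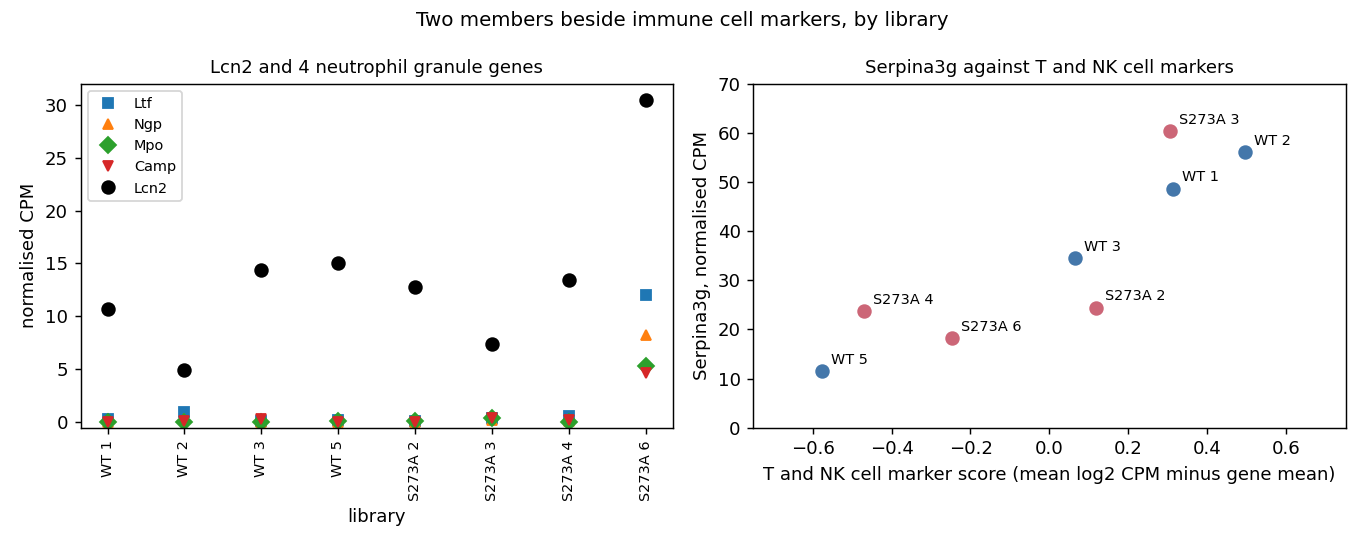
Left, normalised CPM of Lcn2 and of 4 neutrophil granule genes in each library; the 4 granule genes are at 4.61 CPM or more in S273A replicate 6 and under 1 CPM in the other 7 libraries. Right, Serpina3g in normalised CPM against the T and NK cell marker score, 1 point per library (blue WT, red S273A); WT replicate 5 is lowest on both axes.

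Ptx3, the long pentraxin (uc008pla.1; chromosome 3, 66219910 to 66225805, plus strand), was at 9.14, 4.44, 2.94 and 5.75 CPM in WT and at 8.36, 5.62, 6.204 and 5.85 CPM in S273A. WT replicate 1 was highest and WT replicate 3 lowest, so all 4 S273A values lay inside the WT range. The log2 fold change was 0.22 (SE 0.30, interval -0.45 to 0.89), and it was 0.02 without WT replicate 3 and 0.56 without WT replicate 1. In the fit with the replicate number as a block, the estimate was 0.92 with an unadjusted edgeR p of 0.0141 (adjusted p 1.00). Only numbers 2 and 3 occur in both genotypes, so that estimate rests on those 4 libraries. The labels do not say that equal numbers are pairs. Tnfaip6, whose product binds Ptx3 in the matrix, had a log2 fold change of 0.12; it was named after its value was seen.

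**Figure D3:**
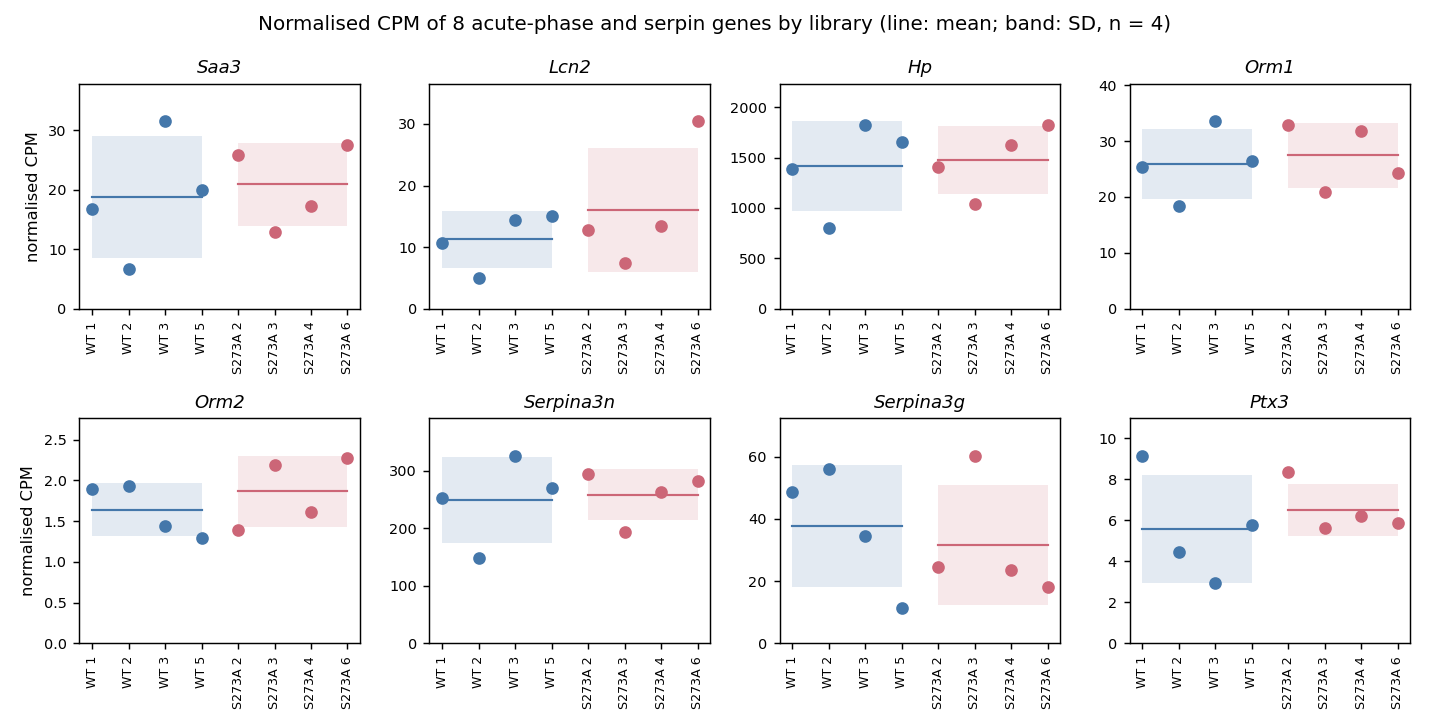
Normalised CPM of the 8 tested members in each of the 8 libraries (points), with the mean (line) and SD (band, n = 4) of each genotype, on linear axes from 0. The genotypes overlap in every panel; WT replicate 2 is the lowest library for Saa3, Lcn2, Hp, Orm1 and Serpina3n.

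By the test across all rows, no member was called as different between genotypes. In edgeR's quasi-likelihood fit of 15667 rows, 0 of 8 tested members were called at an adjusted p under 0.05 (adjusted p 1.00 for each), against 0% of all tested rows. At an unadjusted p under 0.05 there were 0 members too, against 1.46% of all rows; the smallest was 0.275, for Lcn2. The genotypes overlapped in all 8 tested members, and did not overlap in 1.19% of all rows. Log2 fold changes were above 0 for 7 members and below 0 for 1, and their median was 0.13. Of all rows, 50.7% were above 0, and the median row was at 0.001. Saa3, Lcn2, Hp, Orm1 and Serpina3n were all lowest in WT replicate 2, so these signs are not separate observations. Without that library, Saa3 (-0.12), Hp (-0.14), Orm1 (-0.05) and Serpina3n (-0.13) were below 0, and Lcn2 (0.26), Orm2 (0.27), Ptx3 (0.12) and Serpina3g (0.008) above. DESeq2 and limma-voom also called 0 members; DESeq2 called 1 of 22694 rows (0.00441%) and limma-voom 0 of 15667 (0%). Exact permutation tests of log2 CPM, 4 against 4 and two-sided, gave p-values from 0.457 (Lcn2 and Ptx3) to 0.8 (Serpina3g), where the smallest possible is 0.0286.

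**Figure D4:**
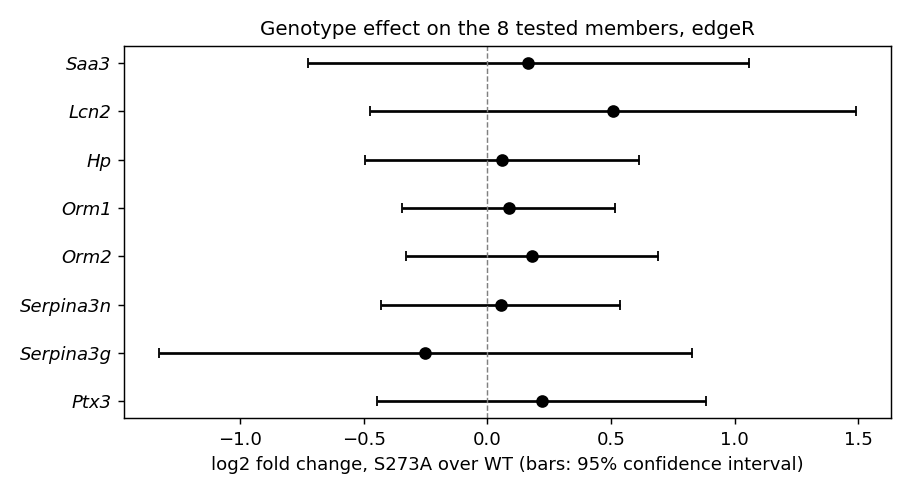
Log2 fold changes of the 8 tested members, S273A over WT, with 95% confidence intervals from edgeR's quasi-likelihood fit. Every interval includes 0; Serpina3g has the widest (-1.33 to 0.83) and Orm1 the narrowest (-0.34 to 0.52).

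The libraries of 1 genotype differed more in these genes than in most others. The within-genotype SD of log2 CPM was 0.90 for Serpina3g, 0.78 for Lcn2 and 0.75 for Saa3, larger than in 99.8%, 99.6% and 99.5% of the 13807 tested rows whose log2 CPM averaged 1 or more. Ptx3 (0.51), Hp (0.45), Serpina3n (0.39) and Orm1 (0.33) exceeded 97.5%, 96.1%, 94.3% and 91.2% of those rows. Orm2 (0.30) exceeded 87.9%, although its own mean log2 CPM of 0.91 lies below that limit and its low counts widen its spread. The median row with such a level had a confidence interval reaching 0.21 to either side, whereas that of Hp, with at least 14056 reads in each library, reached from -0.50 to 0.61.

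That spread was shared between several members. Of 28 pairs of tested members, 8 correlated over the 8 libraries at an adjusted p under 0.05 (Pearson, exact permutation, Benjamini-Hochberg over the 28 pairs), all 8 positive and all among Saa3, Lcn2, Hp, Orm1 and Serpina3n. The closest pair was Saa3 and Serpina3n, genes on different chromosomes, with r = 0.97 (exact permutation p 7.44e-05, adjusted 0.00208) and rho = 0.98 (p 0.000397, adjusted 0.00556). Hp correlated with Lcn2 at r = 0.91 (exact permutation p 0.000223, adjusted 0.00312) and rho = 0.98 (p 0.000397, adjusted 0.00556). Without the 2 libraries farthest from the median of the first gene, r was 0.89 for Saa3 with Serpina3n and 0.95 for Lcn2 with Hp, over 6 libraries.

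Several other pairs had a lower r once the 2 libraries farthest for their first-named gene were left out. Saa3 with Orm1 went from 0.80 to 0.47. In contrast, r rose from 0.81 to 0.88 for Lcn2 with Serpina3n and from 0.54 to 0.80 for Lcn2 with Orm1. Hp with Serpina3n had r = 0.94 (exact permutation p 0.0027, adjusted 0.0151) and rho = 0.81 (p 0.0218, adjusted 0.0871), and r was 0.50 without the 2 farthest libraries. Saa3 with Hp had r = 0.91 (exact permutation p 0.00243, adjusted 0.0151) and rho = 0.90 (p 0.00456, adjusted 0.0426), with r = 0.72 without the 2 libraries farthest for Saa3. Orm1 with Serpina3n had r = 0.89 (exact permutation p 0.00188, adjusted 0.0151) and rho = 0.83 (p 0.0154, adjusted 0.0718), and r = 0.73 without the 2 libraries farthest for Orm1. Hp with Orm1, at r = 0.77 (exact permutation p 0.023, adjusted 0.0715) and rho = 0.55 (p 0.171, adjusted 0.342), rested on the 2 libraries farthest for Hp, since r was -0.03 without them. With any 1 library left out, the lowest r was 0.92 for Saa3 with Serpina3n, 0.86 for Hp with Serpina3n, 0.83 for Lcn2 with Hp, 0.80 for Orm1 with Serpina3n and 0.77 for Saa3 with Hp. It was 0.70 for Saa3 with Lcn2 and 0.62 for both Saa3 with Orm1 and Lcn2 with Serpina3n. The count of called pairs was 1 without WT replicate 2 and 2 without S273A replicate 3, in tests over 7 libraries.

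Ptx3, Orm2 and Serpina3g stood outside that set. Ptx3 had r between -0.10 and 0.09 with the other 7 members, although with so few libraries these values are loose. Serpina3g was negative with Lcn2 (r = -0.75, exact permutation p 0.0309, adjusted 0.0864; rho = -0.88, p 0.00724, adjusted 0.0507) and with Hp (r = -0.71, exact permutation p 0.0443, adjusted 0.113; rho = -0.79, p 0.0279, adjusted 0.0977), and neither passed. With Saa3 and with Serpina3n, Serpina3g had r = -0.58 (exact permutation p 0.128, adjusted 0.256; rho = -0.62, p 0.115, adjusted 0.268) and r = -0.62 (exact permutation p 0.103, adjusted 0.222; rho = -0.57, p 0.151, adjusted 0.326). Without the 2 libraries farthest from the Serpina3n median, the latter was 0.02. Orm1 and Orm2, which share sequence, had r = -0.70 (exact permutation p 0.0625, adjusted 0.146; rho = -0.74, p 0.0458, adjusted 0.117). The adipocyte marker score ran alongside the 5 correlated members in part: it was lowest in WT replicate 2 (-0.39) and below 0 in S273A replicate 3 (-0.12), but also below 0 in S273A replicate 6 (-0.16), where Hp and Lcn2 were highest. The macrophage score lay between -0.20 and 0.11 in all libraries. The B and plasma cell score was highest in S273A replicate 3 (0.75) and WT replicate 2 (0.55). The endothelial score was lowest in WT replicate 2 (-0.25) but was -0.02 in S273A replicate 3. The part of tissue makeup in these correlations was not tested.

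**Figure D5:**
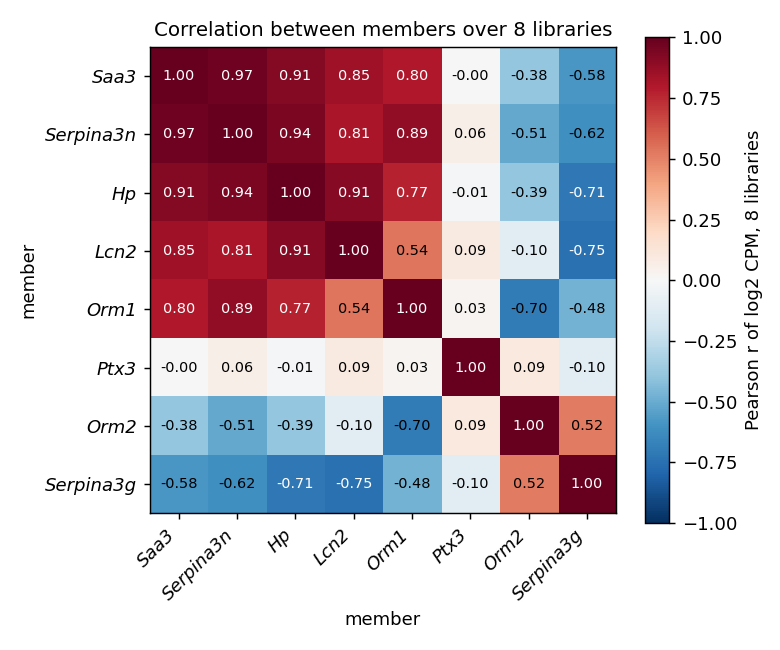
Pearson r of log2 CPM over the 8 libraries for each pair of the 8 tested members, from -1 (blue) to 1 (red). Saa3, Serpina3n, Hp, Lcn2 and Orm1 form a block of positive values from 0.54 to 0.97, while Serpina3g is negative with each of those 5.

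The rows most like each of 4 members, by Pearson r over the 8 libraries among 10834 other rows whose log2 CPM averaged 3 or more, were taken as a description with no test. For Hp they were the basement membrane collagen Col4a1 (r = 0.99), the semaphorin Sema3c (0.98) and Lrg1 (0.98), itself an acute-phase glycoprotein. Lrg1 was at 246, 153, 378 and 301 CPM in WT and 289, 204, 311 and 335 CPM in S273A, low in the same 2 libraries as Hp. For Serpina3n they were the collagen-processing enhancer Pcolce2 (0.99), the IGF-binding complex subunit Igfals (0.98) and the carnitine acetyltransferase Crat (0.98). Saa3 was nearest to Pvrl2, a cell adhesion protein (0.98), Pcolce2 (0.97) and the apelin receptor Aplnr (0.97), and Lcn2 to Pik3r3, a PI3-kinase subunit (0.98), 4930578C19Rik (0.96) and the potassium channel Kcnc2 (0.96). An r of at least 0.9 was reached by 266 rows for Hp (2.46%), 263 for Serpina3n (2.43%), 84 for Saa3 (0.775%) and 32 for Lcn2 (0.295%). The rows named are thus only the top of longer lists.

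No gene on the list of acute-phase inducers and their signalling was called. Of 26 listed cytokines, receptors, transcription factors and other signalling genes, 24 had a row and 22 were tested. Of those tested, 0 were called, 12 estimates were above 0 and 10 below, and the median log2 fold change was 0.001. Osm, oncostatin M, a cytokine of the interleukin 6 family, averaged 2.44 ± 0.33 CPM for WT and 1.83 ± 0.03 CPM for S273A (SD, n = 4 each; log2 fold change -0.41, SE 0.16, unadjusted edgeR p 0.0253, adjusted p 1.00). All 4 S273A libraries (1.78 to 1.86 CPM) lay below all 4 WT libraries (2.12 to 2.79 CPM), a separation seen in 1.19% of all rows. The interleukin 1 receptor Il1r1 (72.3 ± 4.78 and 79.8 ± 6.08 CPM, log2 fold change 0.14), the oncostatin receptor Osmr (97.6 ± 7.96 and 105 ± 6.002 CPM, 0.11) and Lif (2.98 ± 0.72 and 2.48 ± 0.39 CPM, -0.27) overlapped between genotypes. Il6 itself, named after its values were seen, was below 1 CPM in every library and was not tested.

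No gene on the list of other acute-phase proteins was called. Of 31 listed, 29 had a row and 18 were tested, 14 with positive and 4 with negative estimates, with a median of 0.11. Among all rows, 50.7% were above 0 and the median was 0.001. An unadjusted edgeR p under 0.05 was reached by 0 of the 18. Lrg1 and Lbp were both lowest in WT replicate 2, so the signs are not all separate observations. The lowest p-values belonged to Hif3a (2.75 ± 0.61 CPM for WT, 3.50 ± 0.64 CPM for S273A, log2 fold change 0.34), the complement gene C4b (986 ± 50.4 and 1061 ± 22.7 CPM, 0.11), the metalloreductase Steap4 (344 ± 15.1 and 410 ± 122 CPM, 0.26) and Itih4 (1.01 ± 0.21 and 1.39 ± 0.72 CPM, 0.46). All 4 overlapped between genotypes. Hif3a is a hypoxia-pathway gene that the list carried and is no secreted protein. S273A replicate 2 stood above the rest for Steap4, at 588 CPM against 312 to 372 CPM in the other 7 libraries, and for Itih4, at 2.45 CPM against 0.71 to 1.17 CPM.

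In the rest of the Serpina3 cluster, 9 genes were listed, 8 had a row and 5 were tested; 0 were called, 4 had positive estimates and the median was 0.11. Serpina3i averaged 0.59 ± 0.05 CPM for WT and 1.01 ± 0.32 CPM for S273A (SD, n = 4 each), with a log2 fold change of 0.77 (SE 0.28, unadjusted edgeR p 0.0197, adjusted p 1.00). The WT libraries held 11, 10, 8 and 10 of its reads and the S273A libraries 14, 26, 14 and 16. The genotypes did not overlap, on few reads from a gene in a family with shared sequence. Serpina3m (5.204 ± 2.55 and 5.59 ± 1.75 CPM, log2 fold change 0.11) overlapped between genotypes, as did Serpina3b (0.30) and Serpina3h (-0.15). Serpina3m was lowest in WT replicate 2 (2.28 CPM) and highest in WT replicate 3 (8.28 CPM), the same lowest and highest libraries as Serpina3n.

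Among 33 other serpins, 31 had a row and 19 were tested; 0 were called, 8 estimates were above 0 and 11 below, with a median of -0.07. The lowest p-values were those of the antitrypsin genes Serpina1a (1.31 ± 0.43 CPM for WT, 0.91 ± 0.14 CPM for S273A, log2 fold change -0.51) and Serpina1d (0.76 ± 0.34 and 0.49 ± 0.26 CPM, -0.60), of Serpinb9b, from the family that blocks granzymes (10.2 ± 2.42 and 7.78 ± 2.85 CPM, -0.39), and of Serpinb1b (1.08 ± 0.28 and 0.85 ± 0.22 CPM, -0.35). All 4 overlapped between genotypes. Of 17 proteases that serpins act on or resemble in target, 16 had a row and 11 were tested, 3 with positive and 8 with negative estimates and a median of -0.10. Prtn3, proteinase 3 of neutrophil granules, had the lowest p (1.02 ± 0.15 and 1.88 ± 0.76 CPM, log2 fold change 0.87, SE 0.32, unadjusted edgeR p 0.0209, adjusted p 1.00). Its S273A values were 2.51, 1.52, 0.98 and 2.52 CPM, and S273A replicate 4 lay within the WT range. The mast cell proteases Cma1 (-0.30) and Mcpt4 (-0.25) and the urokinase gene Plau (-0.13) followed.

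Receptors and partners of the members completed the lists. Of 22, all had a row and 19 were tested; 0 were called, 8 estimates were above 0 and 11 below, with a median of -0.03. Tlr2, a receptor that serum amyloid A can engage, averaged 44.0 ± 3.08 CPM for WT and 37.6 ± 4.51 CPM for S273A (SD, n = 4 each; log2 fold change -0.23, SE 0.09, unadjusted edgeR p 0.0316, adjusted p 1.00), and its libraries overlapped. The gelatinase Mmp9, which Lcn2 can bind, was at 7.19 ± 1.40 and 9.09 ± 1.45 CPM (log2 fold change 0.34), and Lrp2, an uptake receptor for lipocalins, at 38.9 ± 8.95 and 47.4 ± 7.71 CPM (0.28). P2rx7, a purine receptor, was at 93.8 ± 12.3 and 85.6 ± 5.96 CPM (-0.13). Osm, Serpina3i, Prtn3 and Tlr2 were the 4 genes of the 6 function lists with an unadjusted edgeR p under 0.05, out of 94 tested (4.26%), beside 1.46% of all rows.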

How the data were processed

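The deposited table gives raw read counts for each row (whole numbers) and, as a further quantity, the row's length in bases, used here for levels per kilobase. Per the submitters' processing notes, the genome build was mm10 and the tools, whose roles are not given, included featureCounts 1.5.2, edgeR 3.3.0, HISAT2 2.0.5, bcl2fastq 2.20.0 and Picard 2.9.2. Per the labels' protocols, ribosomal RNA was removed from 400 ng of RNA, cDNA was made without strand marks, amplified for 12 cycles and read as pairs of 36 bases. Duplicate and multi-place reads are not described in the sources used here.

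Counts were fitted with edgeR 4.0.16 in R 4.3.3: filterByExpr (about 10 counts in at least 4 libraries, total of 15; 15667 rows kept), TMM, robust glmQLFit and glmQLFTest, and Benjamini-Hochberg adjustment over all rows. Standard errors came from the F statistic. Log2 CPM used a prior count of 2. The fit was tested on simulated data. DESeq2 1.42.0, limma-voom 3.58.1, RLE scaling, no filter, no robust option, a replicate block, leaving out each library, and summing Saa1 with Saa2 and Orm1 with Orm2 were alternatives. Gene positions and 36-base stretches came from GENCODE M21 (GRCm38) by symbol.

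The members and the 19 lists were chosen with earlier results of these data known. Exact symbols matched 278 of the 295 list entries to a row, and the rest are not analysed here. Named genes were the 10 members, up to 4 tested genes with the smallest p from each function list, markers bearing on a member, and the 3 rows most like Saa3, Lcn2, Hp and Serpina3n.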

Additional observations from a re-analysis of the deposited data

Results flagged for a closer look

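Of 16 groups of 4 libraries checked (8 tested members in 2 genotypes), 1 held a library far from the rest. Serpina3g was at 60.3 CPM in S273A replicate 3, and its gap to the next S273A library (24.4 CPM) was 0.853 of the range of the 4, above Dixon's critical value at 95% for 4 values. Chance flags about 1 group in 20. The highest WT library, replicate 2, was at 56.0 CPM.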

How the results depend on the processing

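No member was called in any alternative fit that tested it: 15 fits for 6 members, 14 for Orm1 and Orm2, whose sum was the remaining fit and was not called, and 2 (DESeq2 and no filter) for Saa1 and Saa2. The count of called rows was 0, except 1 in DESeq2, and 0 to 1 over the fits without 1 library; neither call was a member. Signs of uncalled estimates turned in fits without 1 library, whose log2 fold changes ran from -0.12 to 0.54 for Saa3, -0.0037 to 0.75 for Lcn2, -0.14 to 0.21 for Hp, -0.049 to 0.24 for Orm1, -0.13 to 0.21 for Serpina3n and -0.76 to 0.0079 for Serpina3g. Orm2 (0.07 to 0.30) and Ptx3 (0.02 to 0.56) kept their sign. Same-numbered libraries did not deviate together (r of -0.08 for number 2 and -0.22 for number 3). With the replicate block 0 rows were called, 94 had an unadjusted p under 0.05 against 229, and Hp was at 0.003. In that fit only numbers 2 and 3 inform the genotype effect, since no other number occurs in both genotypes.

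Of 28 member pairs, 8 correlated at an adjusted p under 0.05. The count was 2 with values centred on the genotype means, where r of the 8 pairs was 0.80 to 0.98 against 0.80 to 0.97 and the smallest p was 0.00347, 0 without the 2 farthest libraries, where only 6 libraries remain, 5 with unscaled library sizes (chosen after seeing the data), and 1 to 11 without 1 library (11 without S273A replicate 6). It was 1 without WT replicate 2, 2 without S273A replicate 3, 3 without WT replicate 1 and 5 without S273A replicate 2. Fewer libraries also raise the smallest possible p, but the setting with 11 pairs had 7 libraries as well. The cause of the moves was not tested. At this depth, Saa1 and Saa2 could not be compared.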
